A study of Neurospora crassa with 12 samples.

Results

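Of the 9729 genes of Neurospora crassa with an NCU identifier, 148 stood at least 4 times above the untreated level after 5, after 30 and after 60 min of HSAF. HSAF, the heat-stable antifungal factor, is a macrolactam that the bacterium Lysobacter enzymogenes makes and that stops fungal growth. The 148 genes hold an endochitinase and other wall enzymes, proteins that bend or coat the plasma membrane, enzymes and binding proteins of phosphoinositides, a small number of regulators, and 96 genes annotated as hypothetical or uncharacterized. The named kinds are a small part of the set, since 115 of the 148 matched none of the annotation classes searched. Most of the 148 genes had their highest mean at 30 min and were still far above the untreated level at 60 min. They were chosen on these same values, so the increase over the untreated mycelium is a description here and is not tested as a finding.

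The members were found by a rule. Read counts were divided by median-of-ratios size factors, computed from the 5845 genes with reads in all 12 libraries. Genes with a mean of 50 or more in any group were kept, which left 5452 genes. A constant of 5 was added to each group mean, and the ratio to the untreated mean had to be 4 or more at all 3 times. Single thresholds at 5, 30 and 60 min were passed by 446, 828 and 434 kept genes. For comparison, a further set of 93 kept genes had ratios of 4 or more at 5 and 30 min and below 2 at 60 min, and is called the transient genes below.

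All libraries came from mycelium of the wild type strain FGSC2489, which received 40 µM HSAF for 0 min (libraries A, B and C, labelled untreated), 5 min (D, E and F), 30 min (G, H and I) or 60 min (J, K and L), called HSAF-0 and, by their minutes, HSAF-5, HSAF-30 and HSAF-60. No solvent control is described for HSAF-0, which is also the only untreated group, so the 3 ratios share its libraries. The study calls the replicates biological. They are described as 3 per time point in liquid culture wells and not as independent experiments, so p-values measure the spread between these libraries. RNA of whole mycelium cannot separate a change in each cell from a change in the mix of cell types.

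Total counts per library lay between 11517462 and 15698448, and counts on NCU genes between 790513 and 11265740. Library I of HSAF-30 stood apart, with 93.7% of its counts on 2 features that carry no gene name. In the other libraries these features held 25.2% to 80.4% of the counts. Without library I, 149 genes met the rule, the 148 among them. The hyphal genes cot-1, a kinase of tip growth, and hex-1, the Woronin body protein, were detected in every library. Cot-1 had 27.4 to 30.6 TPM (transcripts per unit of a fixed library total, corrected for length) in HSAF-0. It had 12.4 to 18.5 TPM in HSAF-5, 10.5 to 14.3 TPM in HSAF-30 and 10.4 to 20.3 TPM in HSAF-60. Hex-1 had 2067 to 3121 TPM in HSAF-0 and 5956 to 6519 TPM in HSAF-30. The conidiation genes con-6 and con-13 were at most 1.98 and 1.56 TPM (transcripts per unit of a fixed library total, corrected for length) in any library, and con-10 was at most 11.6 TPM. The summed level of 14 genes with con, ccg or eas symbols was nevertheless 17210 to 26165 TPM in HSAF-0, 28153 to 33611 TPM in HSAF-5, 41845 to 96966 TPM in HSAF-30 and 72299 to 104574 TPM in HSAF-60. Most of it came from ccg-16 and ccg-14. None of the 14 genes is a member, and their part in the results was not tested.

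The fungal cell wall is a mesh of chitin and glucans, with proteins attached to it, that is built and loosened throughout growth. Chitinases and glucanases cut it, while anchored proteins and proteases shape its surface. Beneath it, eisosomes fold the plasma membrane, proteins with BAR domains bend it at sites of endocytosis where actin patches form, and phosphoinositides mark it for binding proteins.

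In all 148 genes, each of the 9 treated libraries stood above each of the 3 HSAF-0 libraries. Across the 5452 kept genes this was so for 12.2%, a value to which the rule itself contributes. At 5 min the members had a median ratio of 9.30 (range 4.12 to 83.0). At 30 min it was 20.6 (4.22 to 293.5), and at 60 min 8.11 (4.07 to 852). All 3 ratios were 10 or more in 33 genes. A gene was called by edgeR's quasi-likelihood test when its adjusted p was below 0.01 and it changed 2-fold or more. At 5 min 147 of the 148 were called higher, where 9.72% of the tested genes were. At 30 and 60 min all 148 were higher, where 19.1% and 9.38% of the tested genes were. Nothing is read from these counts, since the rule used the same contrasts. The exception at 5 min was NCU06747, with 34.9, 34.3 and 41.3 normalised counts in HSAF-0 and 129, 77.0 and 309 in HSAF-5 (edgeR adjusted p = 0.0177).

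Together the 148 genes took 0.408% to 0.578% of the NCU counts in HSAF-0. Their share was 3.71% to 4.71% in HSAF-5, 7.81% to 10.3% in HSAF-30 and 3.76% to 6.69% in HSAF-60. No treated library overlapped with HSAF-0 in this share, which follows from choosing the genes for standing above HSAF-0. Among the treated groups HSAF-30 lay above the others. In HSAF-0 the members had a median of 7.27 TPM, the transient genes 7.90 TPM and the kept genes 21.3 TPM. A ratio to HSAF-0 favours genes that are low there, so this level is not particular to the members. Of the 148, 23 had fewer than 30 reads over the 3 HSAF-0 libraries, and their ratios rest on few reads and on the added constant. The genes NCU04148, NCU06792 and NCU00197 had 2, 3 and 3 reads.

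The highest mean fell in HSAF-30 for 95 members, in HSAF-60 for 27 and in HSAF-5 for 26. These are 64.2%, 18.2% and 17.6% of the members. Among the kept genes the highest mean fell in HSAF-30 for 30.8%, in HSAF-60 for 23.6%, in HSAF-5 for 20.2% and in HSAF-0 for 25.4%. The rule keeps members from being highest in HSAF-0, so the shares of the kept genes are not like for like. The 26 genes that were highest in HSAF-5 had a median ratio of 17.2 at 5 min, which had come down to 6.19 at 60 min. The 27 that were highest in HSAF-60 had median ratios of 6.32, 17.2 and 22.6 at the 3 times. That each of these sets is highest at its own time follows from the sorting.

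**Figure D1:**
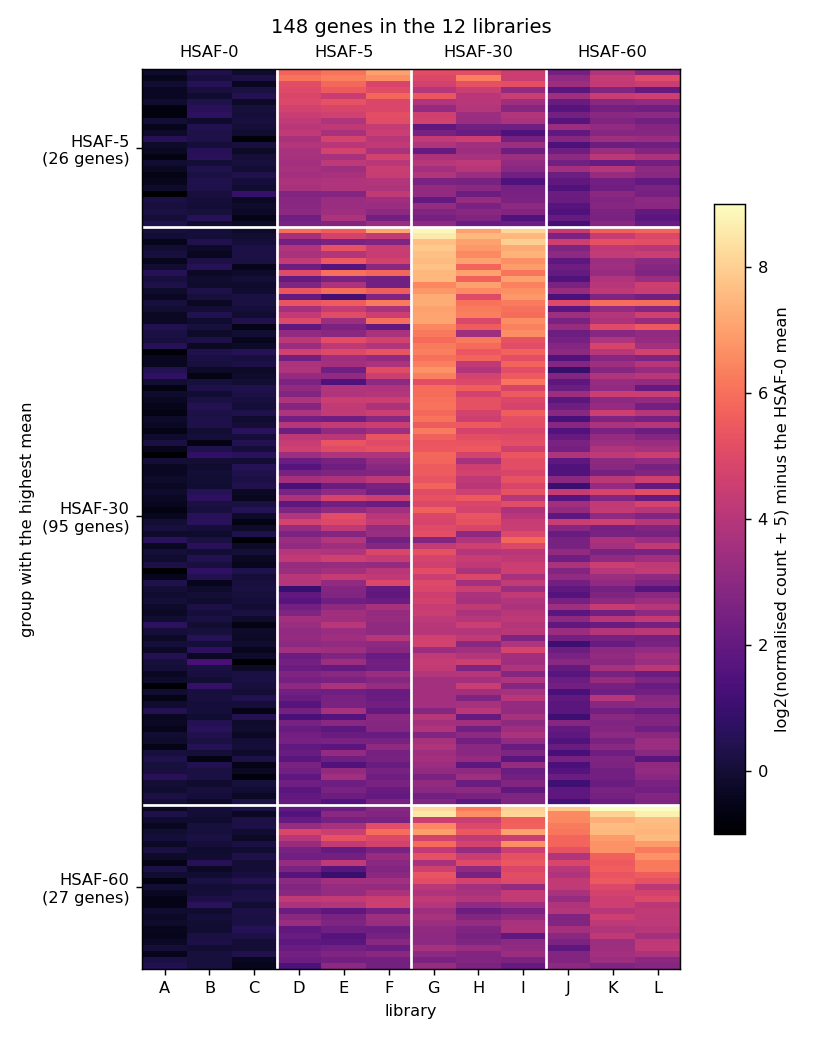
Each row is 1 of the 148 genes and each column 1 of the 12 libraries, in 4 groups. The colour is log2 of the normalised count plus 5, minus the mean of that value in HSAF-0, and rows are ordered by the group with the highest mean (26, 95 and 27 genes). The HSAF-30 libraries are the brightest in the middle block, and library J is darker than K and L across most rows.

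Levels per length were compared next. NCU06660, annotated as plasma membrane proteolipid 3, a small membrane peptide that yeast needs for ion balance, was the most abundant member in HSAF-0 at 840 TPM. It stood at 9055 TPM in HSAF-5, 7098 TPM in HSAF-30 and 6497 TPM in HSAF-60. At 30 min the most abundant member was NCU08621, a hypothetical protein with a term for vesicle-mediated transport, with 7485 TPM. At 60 min it was the arginase-like gene NCU02084, with 9161 TPM. NCU06660 and NCU08621 are named here after their values were seen.

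The 10 members whose smallest ratio was highest are given first. NCU05351, a hypothetical protein, had 4.76, 2.06 and 4.95 normalised counts in HSAF-0, 352, 416 and 663 in HSAF-5, 1342, 581 and 661 in HSAF-30, then 273, 551 and 538 in HSAF-60. Its ratios were 54.0, 97.1 and 51.4, and it rests on 15 reads in HSAF-0. All treated libraries lay far above HSAF-0, and no difference between treated groups was called.

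NCU05131, uncharacterized, had 12.7, 12.3 and 9.35 normalised counts in HSAF-0 and 1008, 782 and 2223 in HSAF-5. It then had 7531, 2209 and 4735 in HSAF-30, then 322, 792 and 879 in HSAF-60. Its ratio of 293.5 at 30 min was the highest of all members at that time, and HSAF-60 lay wholly below HSAF-30.

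NCU16729 and NCU16445, both without a known function, and NCU05277, also hypothetical, had their highest mean at 60 min. Their order before that differed, since the mean of NCU16445 was lower at 30 min than at 5 min. NCU16729 had 6.05 to 7.54 normalised counts in HSAF-0, 254 to 721 in HSAF-5, 503 to 1509 in HSAF-30 and 838, 2172 and 2032 in HSAF-60. NCU16445 had 3.85 to 7.54, 173 to 419.6, 203 to 281 and then 586, 1300 and 2056. In NCU05277 the ratios were 18.0, 61.9 and 91.9.

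The remaining genes of the 10 were NCU09522, NCU09832, NCU05202, NCU02084 and NCU06824. NCU09522, with annotation terms for fucose metabolism and glycosyl transfer, was highest at 5 min, with 1628, 1899 and 2430 normalised counts against 12.7 to 24.2 in HSAF-0. NCU09832 had ratios of 24.3, 27.5 and 19.5. NCU06824, annotated as a membrane protein, had ratios of 34.9, 26.3 and 18.0.

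Genes of the cell wall came next by annotation. In all, 10 members carried a wall term or product name, 8 of them with the highest mean in HSAF-30 and 2 in HSAF-5. The endochitinase gene gh18-5 (NCU04554), whose product cuts chitin within the chain, had 93.6, 130.2 and 96.3 normalised counts in HSAF-0 and 4672, 6705 and 5291 in HSAF-5. It reached 12446, 10400 and 11204 in HSAF-30, and had 1059, 2062 and 2395 in HSAF-60. The groups did not overlap, and HSAF-60 was below HSAF-5.

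The exochitinase NCU10852, which releases N-acetylglucosamine from chain ends, had the same order of group means. It had 127 to 151 normalised counts in HSAF-0, 2592, 2500 and 6031 in HSAF-5, 7394, 5211 and 4810 in HSAF-30, then 604, 1334 and 1029 in HSAF-60. NCU01080, annotated as related to a beta-1,3-glucanase, had 136 to 275 normalised counts in HSAF-0, 2759 to 6496 in HSAF-5, 3130 to 7457 in HSAF-30 and 662, 1557 and 1220 in HSAF-60. All 3 of these enzymes of wall breakdown fell between 30 and 60 min, by 2.67 ± 0.35 (SE), 2.62 ± 0.41 and 2.32 ± 0.47 on the log2 scale (edgeR adjusted p = 3.46e-05, 0.000138 and 0.00101).

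For a pair of wall proteins no difference between treated groups was called. The anchored cell wall protein gene acw-4 (NCU09263) had 1336, 2269 and 1488 normalised counts in HSAF-0, 9363, 12477 and 11917 in HSAF-5, 19953, 19029 and 13278 in HSAF-30, then 12078, 10769 and 10964 in HSAF-60. NCU00399, annotated as the wall protein PhiA, which in Aspergillus takes part in making the spore-bearing phialide cells, had 554 to 3561 in HSAF-0 and 11098, 11628 and 15436 in HSAF-60. In both genes every treated library was above every HSAF-0 library. For acw-4, HSAF-60 against HSAF-5 gave a log2 fold change of -0.08 ± 0.32 (SE).

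NCU07491, with terms for wall organization and the cortex of the cell tip, was the wall-linked member with the highest count at 5 min. Its normalised counts were 439, 664 and 353 in HSAF-0, 16930, 27555 and 13416 in HSAF-5, 11914, 17596 and 17102 in HSAF-30, then 5002, 9225 and 10414 in HSAF-60. Of the polysaccharide genes NCU16901 and NCU05183, which lie next to each other, NCU16901 had ratios of 32.7, 13.8 and 6.73 and NCU05183 had 6.15, 6.80 and 5.47. The first came down between 5 and 60 min (log2 fold change -2.37 ± 0.35, edgeR adjusted p = 0.000151). The wall members outside the naming rule are given here after their values were seen.

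The aspartic proteases NCU02956 and NCU07063, annotated as secreted or wall-bound enzymes, completed the wall genes. NCU02956 had 217 to 299 normalised counts in HSAF-0 and 1928, 4428 and 6061 in HSAF-60. In NCU07063 the counts were 26.4 to 46.0 in HSAF-0, 380.0 to 408 in HSAF-5, 791 to 1016 in HSAF-30 and 565 to 960.0 in HSAF-60. It was the only wall member that rose between 5 and 30 min (log2 fold change 1.18 ± 0.30, edgeR adjusted p = 0.00793).

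The wider wall list, taken from reference symbols (chitin synthases, GH18 chitinases, gel glucanosyltransferases, anchored and non-anchored wall proteins and others), held 40 genes, and 39 were tested. One of them, csr-1 (NCU00726), was taken by the start of its symbol alone and is not shown to be a wall gene. Its ratios were 0.88, 0.54 and 0.56. Only gh18-5 and acw-4 of the list are members. Of the 39, 13, 15 and 9 were higher at 5, 30 and 60 min, and 0, 2 and 2 were lower. Over all tested genes 9.72%, 19.1% and 9.38% were higher at these times, and 172, 1153 and 268 of the 7582 were lower. The chitin synthase gene chs-3 had ratios of 3.18, 29.0 and 8.07 and missed the rule at 5 min. In chs-1, the ratios of 5.00, 7.42 and 3.54 missed it at 60 min. The glucanosyltransferase gel-4, with 7.87, 12.1 and 3.08, missed it at 60 min as well. Other genes of the list ended below HSAF-0, such as acw-6 (0.69, 1.17 and 0.12) and acw-11 (1.48, 0.58 and 0.24). These genes of the list are named after their values were seen.

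**Figure D2:**
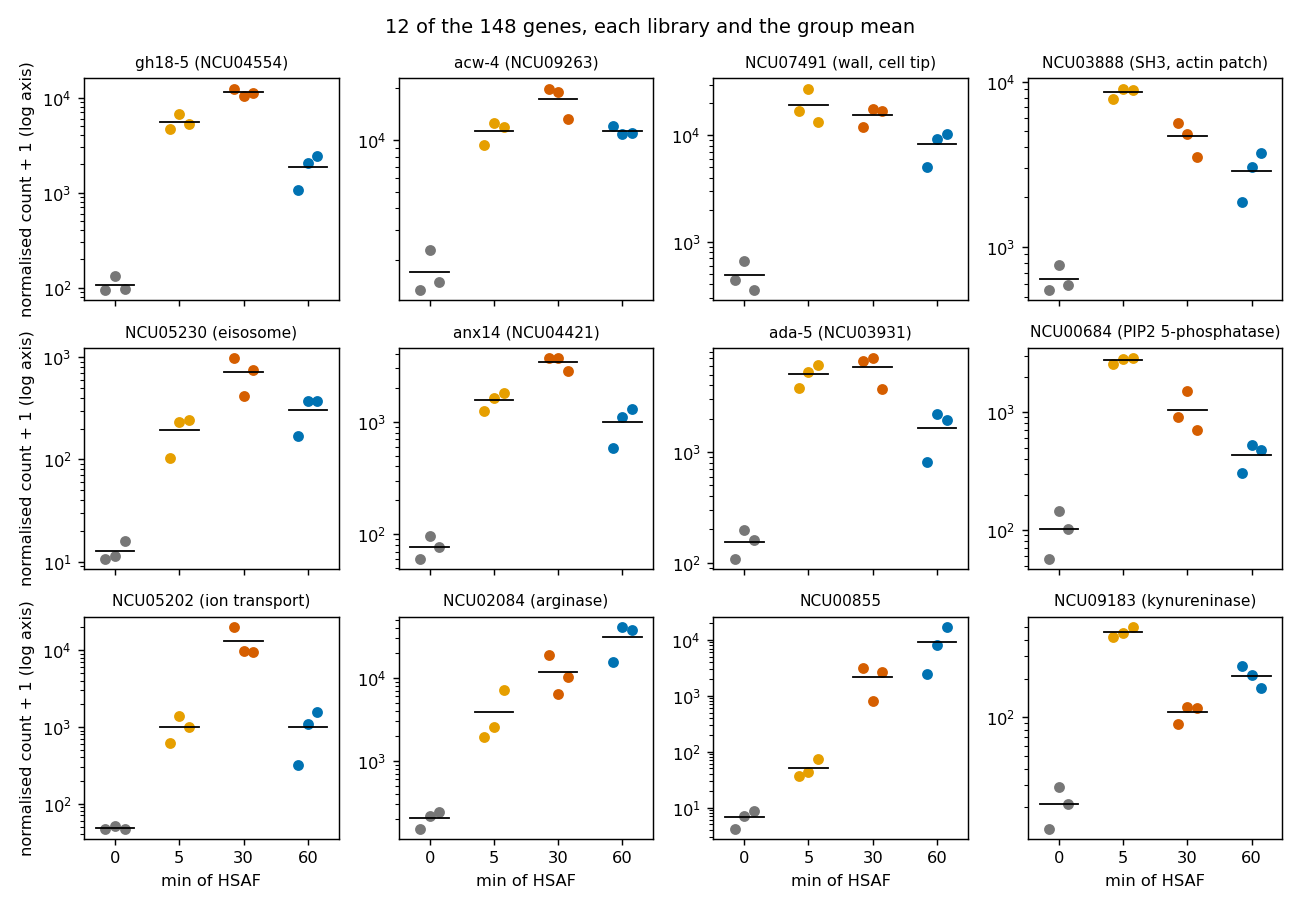
Normalised counts plus 1, on log axes that differ between panels, for 12 of the genes at 0, 5, 30 and 60 min of HSAF. Each point is 1 library and each line the mean of 3. In every panel the HSAF-0 points lie below all treated points, and gh18-5 comes down at 60 min while NCU02084 and NCU00855 are highest there.

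At the plasma membrane and the actin cortex, 5 members carried terms for endocytosis, eisosomes or cortical actin. NCU05230, with terms for eisosome assembly, had 9.52, 10.3 and 14.9 normalised counts in HSAF-0, 103, 234 and 244 in HSAF-5, 985, 421 and 752 in HSAF-30, then 168, 373 and 376 in HSAF-60. It rose between 5 and 30 min (log2 fold change 1.85 ± 0.41, edgeR adjusted p = 0.00342). All HSAF-30 libraries were above all HSAF-5 and HSAF-60 libraries.

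The membrane-bending proteins differed from each other. NCU04637, annotated as the BAR adaptor Rvs167, which in yeast acts in the release of endocytic vesicles, had 70.4 to 119 normalised counts in HSAF-0, 1799 to 2253 in HSAF-5, 1738 to 2521 in HSAF-30 and 451 to 1067 in HSAF-60. It fell between 30 and 60 min (log2 fold change -1.51 ± 0.35, edgeR adjusted p = 0.00297). The amphiphysin-like gene amph-1 (NCU01069), with 141 to 182 in HSAF-0, had 891 to 973 in HSAF-5, 841 to 2017 in HSAF-30 and 458, 933 and 1616 in HSAF-60. For amph-1 no difference between the treated groups was called. Amph-1 also carries a term for small GTPase signalling.

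NCU03888, a protein with DUF500 and SH3 domains and terms for actin patches, was highest at 5 min. Its normalised counts were 549, 775 and 591 in HSAF-0, 7884, 9075 and 8911 in HSAF-5, 5633, 4845 and 3482 in HSAF-30, then 1880, 3031 and 3696 in HSAF-60. It came down by 60 min (HSAF-60 against HSAF-5, log2 fold change -1.66 ± 0.34, edgeR adjusted p = 0.0017). NCU00696, an SH3 protein with terms for actin and phospholipid binding, peaked instead at 30 min, with 3514 to 5312 against 136 to 173 in HSAF-0.

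Phosphoinositide terms were carried by 5 members, NCU03888 among them. NCU00684, a phosphatidylinositol-4,5-bisphosphate 5-phosphatase, which removes a phosphate from this membrane lipid, had 55.5, 143 and 102 normalised counts in HSAF-0 and 2535, 2822 and 2874 in HSAF-5. It then had 908, 1518 and 709 in HSAF-30, then 306, 522 and 475 in HSAF-60. Its level was highest at 5 min and HSAF-60 was below HSAF-5 (log2 fold change -2.74 ± 0.41, edgeR adjusted p = 0.000163).

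NCU11324, a PX domain protein, the kind of domain that binds phosphoinositides, was not called in any contrast between treated groups. It had 165 to 301 normalised counts in HSAF-0, 4745 to 5845 in HSAF-5, 3831 to 5029 in HSAF-30 and 2380, 5959 and 8068 in HSAF-60. NCU05881, with DUF500 and UBA domains, had ratios of 8.63, 23.8 and 11.6. NCU07741, an acyltransferase with a term for acyl-chain remodelling of phosphatidylinositol, had 71.4 to 122 in HSAF-0, 555 to 655 in HSAF-5, 2573 to 4536 in HSAF-30 and 274 to 650.2 in HSAF-60. It rose and then fell (log2 fold changes 2.43 ± 0.37 and -2.83 ± 0.38, edgeR adjusted p = 0.000219 and 4.1e-05).

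The one member with a calcium term was anx14 (NCU04421), an annexin, a protein that binds phospholipids in the presence of calcium. It had 58.7, 95.2 and 75.4 normalised counts in HSAF-0, 1256, 1620 and 1817 in HSAF-5, 3698, 3656 and 2810 in HSAF-30, then 584, 1100 and 1293 in HSAF-60. It fell between 30 and 60 min (log2 fold change -1.84 ± 0.35, edgeR adjusted p = 0.000669). None of the 13 listed genes for calcium pumps, calmodulin, calcineurin, calcium-dependent kinases and phospholipase C is a member. Of these 13, 5, 6 and 1 were higher at 5, 30 and 60 min, with none lower, where 9.72%, 19.1% and 9.38% of all tested genes were higher. Among all 7582 tested genes 172, 1153 and 268 were lower at these times. Of the 13 listed genes, camk-1 had ratios of 9.73, 14.4 and 1.92, and is named after its values were seen.

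Regulators were few. The transcription factor gene ada-5 (NCU03931) had 106, 198 and 158 normalised counts in HSAF-0, 3759, 5229 and 6138 in HSAF-5, 6674, 7078 and 3722 in HSAF-30, then 813, 2189 and 1925 in HSAF-60. The C2H2 zinc finger gene NCU07952 had 95.2 to 124 in HSAF-0, 1777 to 2257 in HSAF-5, 1205 to 1678 in HSAF-30 and 308 to 563 in HSAF-60. NCU04058, a further gene with a transcription factor term, had ratios of 15.5, 14.5 and 4.86. All 3 were at or near their highest level at 5 min and fell between 30 and 60 min, by 1.91 ± 0.42, 1.64 ± 0.32 and 1.73 ± 0.34 on the log2 scale (edgeR adjusted p = 0.00187, 0.00072 and 0.000815).

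NCU03654, the fourth gene with a transcription factor term, had ratios of 7.43, 4.69 and 4.29. NCU12126, with a transcriptional activator term that the keyword search missed, had ratios of 10.8, 17.5 and 14.9. It was not called lower at 60 min than at 30 min (log2 fold change -0.28 ± 0.32), and is named after its values were seen. NCU06586, an AN1 zinc finger protein that the term search placed in the same group, behaved otherwise. It had 22.0 to 49.2 normalised counts in HSAF-0, 145 to 239 in HSAF-5, 1924 to 3574 in HSAF-30 and 383, 1308 and 1814 in HSAF-60. It rose between 5 and 30 min (log2 fold change 4.00 ± 0.52, edgeR adjusted p = 6.03e-05).

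Among signalling enzymes, stk-50 (NCU07280), annotated as the kinase Gad8, which in fission yeast acts below TOR complex 2, had 385, 545 and 558 normalised counts in HSAF-0. It had 3209 to 5086 in HSAF-5, 3589 to 8019 in HSAF-30 and 1624 to 2796 in HSAF-60. The tyrosine phosphatase NCU02257 had 12.7 to 21.9 in HSAF-0, 111 to 254 in HSAF-5, 843 to 1491 in HSAF-30 and 62.5 to 164 in HSAF-60. Both fell between 30 and 60 min (log2 fold changes -1.61 ± 0.38 and -3.37 ± 0.44, edgeR adjusted p = 0.00301 and 3.08e-05). The nudix hydrolase NCU02895, grouped with them by its pyrophosphatase term though it is no protein phosphatase, had ratios of 4.21, 32.0 and 4.94. None of 10 listed kinases of the MAP kinase cascades is a member, and 1, 3 and 0 of them were higher at 5, 30 and 60 min, beside 9.72%, 19.1% and 9.38% of all tested genes.

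One member, NCU16472, has a NACHT domain, found in fungal proteins of non-self recognition. It had 26.7 to 50.8 normalised counts in HSAF-0, 390.4 to 1334 in HSAF-5, 509 to 1414 in HSAF-30 and 225 to 375 in HSAF-60. No member was found among 5 listed heterokaryon incompatibility genes or in the pair of listed autophagy genes, apg-1 and atg-8. Of that pair, 0, 2 and 0 were higher at 5, 30 and 60 min. By annotation, however, autophagy terms were carried by the members NCU03660 and NCU09568, which are named after their values were seen. NCU03660, annotated as Sfk1, had ratios of 15.8, 11.6 and 12.4. NCU09568, with terms for macroautophagy and the vacuole membrane, had ratios of 12.6, 43.0 and 6.11, and fell between 30 and 60 min (log2 fold change -2.93 ± 0.47, edgeR adjusted p = 0.000158).

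Metabolic and transport genes differed in their time courses. NCU02084 has the product name arginase, which splits arginine into ornithine and urea, and an annotation term for the related enzyme agmatinase. It had 152, 219 and 244 normalised counts in HSAF-0, 1936, 2595 and 7098 in HSAF-5, 19031, 6354 and 10409 in HSAF-30, then 15771, 40685 and 38104 in HSAF-60. This gene alone held 0.399%, 0.985% and 0.875% of the NCU counts in libraries J, K and L. HSAF-60 exceeded HSAF-5 (log2 fold change 2.95 ± 0.54, edgeR adjusted p = 0.000768).

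The kynureninase NCU09183, an enzyme on the path from tryptophan to NAD, went the other way. Its normalised counts were 12.7, 28.1 and 20.4 in HSAF-0, 417, 451 and 499 in HSAF-5, 88.5, 119.7 and 117 in HSAF-30, then 247, 211 and 168 in HSAF-60. HSAF-30 lay below both other treated groups. It fell between 5 and 30 min (log2 fold change -2.09 ± 0.32, edgeR adjusted p = 0.000194).

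NCU05202, with terms for potassium and hydrogen ion transport across the inner mitochondrial membrane, had 46.0, 50.7 and 46.2 normalised counts in HSAF-0, 622, 1376 and 987 in HSAF-5, 20026, 9874 and 9476 in HSAF-30, then 316, 1098 and 1583 in HSAF-60. It rose and fell back by nearly the same amount (log2 fold changes 3.72 ± 0.53 and -3.78 ± 0.54, edgeR adjusted p = 0.000127 and 6.06e-05). NCU02051, an ATP-dependent membrane transporter, had ratios of 9.42, 6.43 and 6.31, and no difference between treated groups was called.

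Other members with symbols were enzymes. The lysophospholipase gene lpl (NCU03141) had ratios of 6.17, 12.6 and 6.74. In gh13-6 (NCU05873), of the alpha-amylase family, the ratios were 17.1, 6.28 and 6.84. The gene un-7 (NCU00651), annotated as a transglutaminase-like protein with a peptide N-glycanase term, had 47.6 to 73.3 normalised counts in HSAF-0, 239 to 341 in HSAF-5, 1944 to 2346 in HSAF-30 and 771 to 1872 in HSAF-60, and rose between 5 and 30 min (log2 fold change 2.82 ± 0.35, edgeR adjusted p = 4.54e-05). Tnr-1 (NCU09390), a reductase of melanin synthesis, rests on 13 reads in HSAF-0, with 0, 5.48 and 2.75 normalised counts there and 28.1, 51.3 and 69.2 in HSAF-60.

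Differences between the treated groups were tested next. The question was whether the members moved on after 5 min or held their level. The rule used none of these contrasts, but it used the same libraries and set a floor at each time, so counts are set beside those of all tested genes. HSAF-30 takes part in both the first and the second contrast, and HSAF-5 in the first and the third.

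Between 5 and 30 min, 44 of the 148 rose, where 9.02% of all 7582 tested genes did, and 3 fell, where 7.81% did. The median log2 fold change was 0.98 in the members and -0.11 over all tested genes. Of the 93 transient genes 3 rose and 1 fell, with a median of 0.05. The count of rising members was 23 without library D and 24 without library G, and 40 without library I.

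Between 30 and 60 min, 4 members rose, where 13.4% of all tested genes did, and 59 fell, where 13.8% did. The median was -1.05 in the members and 0.10 over all tested genes. The transient genes fell in 91 of 93 cases with a median of -2.84, which their own definition fixes. Without library I, 63 members fell and 3 rose.

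Over the whole span from 5 to 60 min, 20 members were higher, where 8.65% of all tested genes were, and 25 were lower, where 9.43% were. The median log2 fold change was -0.17, against 0.08 over all tested genes. Without library D, 12 members were higher, without L, 13 were, and without F, 16 were lower. With scaling by library size alone, 32 were higher and 15 lower, and the median turned to 0.48, so no direction is given for this span as a whole.

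In 57 members none of the 3 contrasts was called. A rise by 30 min followed by a fall by 60 min was called in 28, and a rise by 30 min with no called change after it in 13. In 12 the rise by 30 min also stood in HSAF-60 against HSAF-5. These classes come from calls, and a contrast that was not called does not show that the level was unchanged. The same patterns were not counted over all tested genes, so it is not known whether they are unusual in the members.

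**Figure D3:**
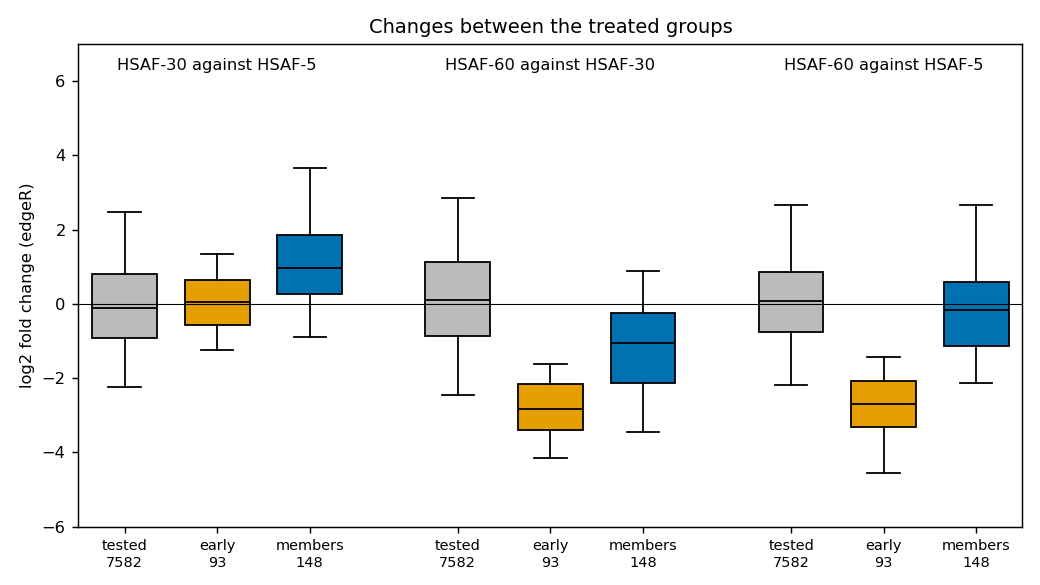
Log2 fold changes from edgeR for 3 contrasts between treated groups, for all 7582 tested genes (grey), the 93 transient genes (orange, marked early) and the 148 members (blue). Boxes span the quartiles with the median as a line, and whiskers reach the 5th and 95th percentile of genes. The medians of the members are 0.98, -1.05 and -0.17.

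The 5 largest rises between 5 and 30 min belonged to NCU02700, NCU00855, NCU02877, NCU04556 and NCU05755, none of which has an annotated function. NCU02700 had 14.9 to 25.4 normalised counts in HSAF-0 and 69.6, 186 and 156 in HSAF-5, then 8989, 2522 and 7039 in HSAF-30, then 2315, 6536 and 10293 in HSAF-60. It rose by 5.44 ± 0.61 on the log2 scale (edgeR adjusted p = 2.27e-05) and HSAF-60 overlapped with HSAF-30. NCU02877 had 99.4, 112 and 125 in HSAF-5, 4121, 2603 and 5135 in HSAF-30, then 466, 753 and 724 in HSAF-60.

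NCU00855 had the highest ratio of all members at 60 min, 852. Its normalised counts were 3.17, 6.17 and 7.70 in HSAF-0, from 25 reads, and 35.8, 42.5 and 72.9 in HSAF-5. They were 3097, 799 and 2698 in HSAF-30, then 2402, 8109 and 16763 in HSAF-60, so the last groups overlap. The rise between 30 and 60 min (log2 fold change 2.04 ± 0.57, edgeR adjusted p = 0.00933) was lost when any 1 library other than J was left out and in a fit of the 2 groups alone. Without L its log2 fold change was 1.24 (edgeR adjusted p = 0.0814).

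NCU04556 and NCU05755 showed a short peak. NCU04556 had 0, 2.06 and 2.20 normalised counts in HSAF-0, from 7 reads, 21.9, 9.30 and 36.0 in HSAF-5, 957, 203 and 736 in HSAF-30, then 11.9, 35.9 and 26.7 in HSAF-60. NCU05755 had ratios of 4.94, 124 and 7.41. In both, the HSAF-5 and HSAF-60 libraries overlapped and all HSAF-30 libraries were above them.

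The 5 largest falls between 30 and 60 min were those of NCU04556, NCU00247, NCU07888, NCU05755 and NCU02491. NCU07888, annotated as a membrane protein, had 102 to 167 normalised counts in HSAF-0, 2873, 6577 and 3807 in HSAF-5, 27538, 18929 and 14750 in HSAF-30, then 502, 1493 and 1154 in HSAF-60. It fell by 4.35 ± 0.49 on the log2 scale (edgeR adjusted p = 1.15e-05). NCU02491, a DnaJ domain protein, the family of Hsp70 co-chaperones, had 197 to 215 in HSAF-0, 2503 to 4352 in HSAF-5, 13742 to 28373 in HSAF-30 and 699.9 to 1930 in HSAF-60. NCU00247 had 549, 1092 and 957 in HSAF-5, 3074, 2217 and 1200 in HSAF-30, then 64.2, 158 and 103 in HSAF-60. All 3 stood lower at 60 min than at 5 min in every library.

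The 4 members that rose between 30 and 60 min were NCU16445, NCU06792, NCU00984 and NCU00855. NCU00984, with a von Willebrand domain, had 50.7 to 65.0 normalised counts in HSAF-0, 243 to 358 in HSAF-5, 569.7 to 1381 in HSAF-30 and 2392, 6537 and 4638 in HSAF-60. NCU06792, which the readable annotation does not cover, had 0, 0 and 1.65 in HSAF-0, from 3 reads, and 17.9 to 26.7 in HSAF-5, 118 to 267 in HSAF-30 and 502, 869 and 1113 in HSAF-60. In both, no library overlapped with another group, and both rose at each step (edgeR adjusted p = 0.000504 and 0.000356 between 30 and 60 min).

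The 3 members that fell between 5 and 30 min were the kynureninase NCU09183, NCU06116 and NCU16834. NCU06116, a membrane protein by annotation, had 1330, 854 and 1516 normalised counts in HSAF-5, 375, 294 and 181 in HSAF-30, then 253, 487 and 479 in HSAF-60, against 53.9 to 78.1 in HSAF-0. NCU16834 had 179 to 198 in HSAF-5, then 73.6, 70.5 and 32.0 in HSAF-30 and 44.2 to 64.6 in HSAF-60. The call for NCU16834 (edgeR adjusted p = 0.00505) was lost without D, E, F, G or I, and in a fit of the 2 groups alone (adjusted p = 0.0159). Its log2 fold change was -1.58, and lay between -1.74 and -1.32 without 1 library.

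One library set the members apart within its own group. Library J was the lowest of the 3 HSAF-60 libraries in 133 of the 148 members, but in 2198 of the 5452 kept genes. The ratio of J to the mean of K and L had a median of 0.490 in the members (quartiles 0.393 and 0.639), 0.773 in the transient genes and 0.983 in all kept genes. In HSAF-5, library D was the lowest in 96 members (64.9%), against 32.0% of the kept genes. In HSAF-0, on which every ratio rests, library A was the lowest in 85 members (57.4%), against 41.0% of the kept genes. In HSAF-30, library G was the highest in 91 members, which was not counted for the kept genes. Library G was the lowest in 14 members (9.46%), against 24.7% of the kept genes. J had the most NCU counts of all libraries, while D had the fewest of HSAF-5. The replicates of a group thus differed in the same direction over most members, and members are not independent of each other in this respect. Why J stood lower was not tested. Without J, the rule found 162 genes, which included all 148.

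**Figure D4:**
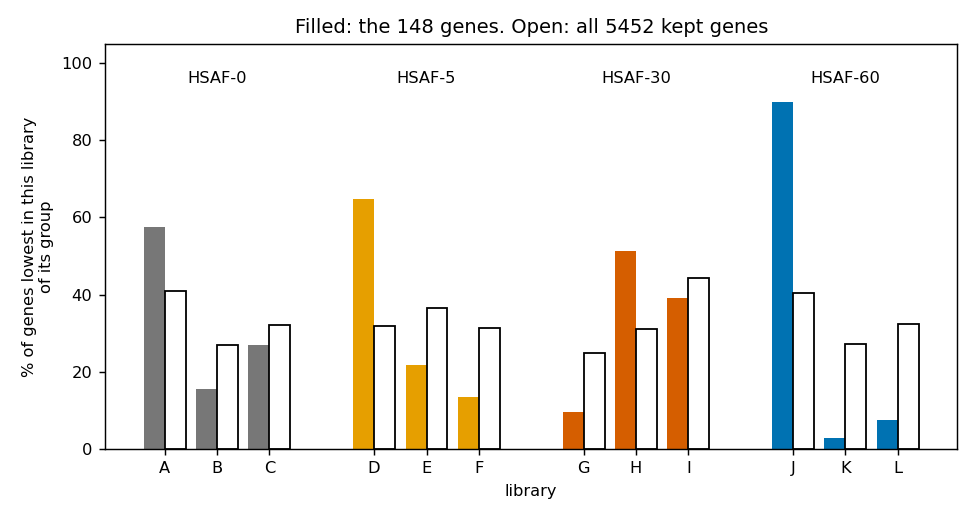
For each of the 12 libraries, the share of genes, in percent, whose level was the lowest of the 3 libraries of that group. Filled bars show the 148 members and open bars all 5452 kept genes. Library J stands out, at 89.9% of the members against 40.3% of the kept genes.

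Members often lay side by side in the genome. In the gene order of the NC12 annotation, 39 of the 148 members (26.4%) had another member as their direct neighbour, against 143 of the 5304 other kept genes (2.70%) that neighboured a member. With kept genes alone in the order, the counts were 44 and 244. Of the transient genes, 8 of 93 (8.60%) neighboured another transient gene, against 106 of the 5359 other kept genes (1.98%) that neighboured a transient gene. These shares are given as a description. Of 196 tested neighbours that are not members, 41, 73 and 41 were higher at 5, 30 and 60 min (20.9%, 37.2% and 20.9%), where 9.72%, 19.1% and 9.38% of all tested genes were. Of the same neighbours 3, 16 and 4 were lower (1.53%, 8.16% and 2.04%). Among all 7582 tested genes 172, 1153 and 268 were lower at these times.

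The 39 genes formed 19 groups with 20 adjacent pairs, and in 11 of the pairs both genes had their highest mean in the same group. This share, 55%, is not read as agreement between neighbours. Of all members 64.2% were highest in HSAF-30, so many pairs of members share that group in any case. The longest run held NCU04556, NCU04555 and gh18-5. Within it the time courses differed. At 5 min the ratios were 4.27, 4.56 and 49.8 and at 30 min 99.3, 13.1 and 102, while NCU04555 stayed at 11.2 at 60 min. The arginase-like gene NCU02084 lay beside NCU02085, which had ratios of 4.31, 9.16 and 14.1 and, like it, was highest at 60 min.

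Other pairs were NCU00247 with NCU00248, NCU09187 with NCU09188, NCU09355 with NCU16597, and amph-1 with NCU01070. In these pairs both genes were highest at 30 min, as were 95 of all 148 members. The kynureninase NCU09183 and its neighbour NCU09182, a stress-responsive A/B barrel protein, were highest at different times. NCU09182 had ratios of 11.5, 16.1 and 5.24 and NCU09183 had 18.2, 4.47 and 8.42. Likewise acw-4 was highest at 30 min and its neighbour NCU09262, with an oxidoreductase term, at 60 min with a ratio of 22.6. Strand was not stated for the kit's counts and overlaps of transcripts were not known here, so reads of neighbouring genes cannot be told apart where transcripts overlap. The pairs named here were chosen after their values were seen.

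**Figure D5:**
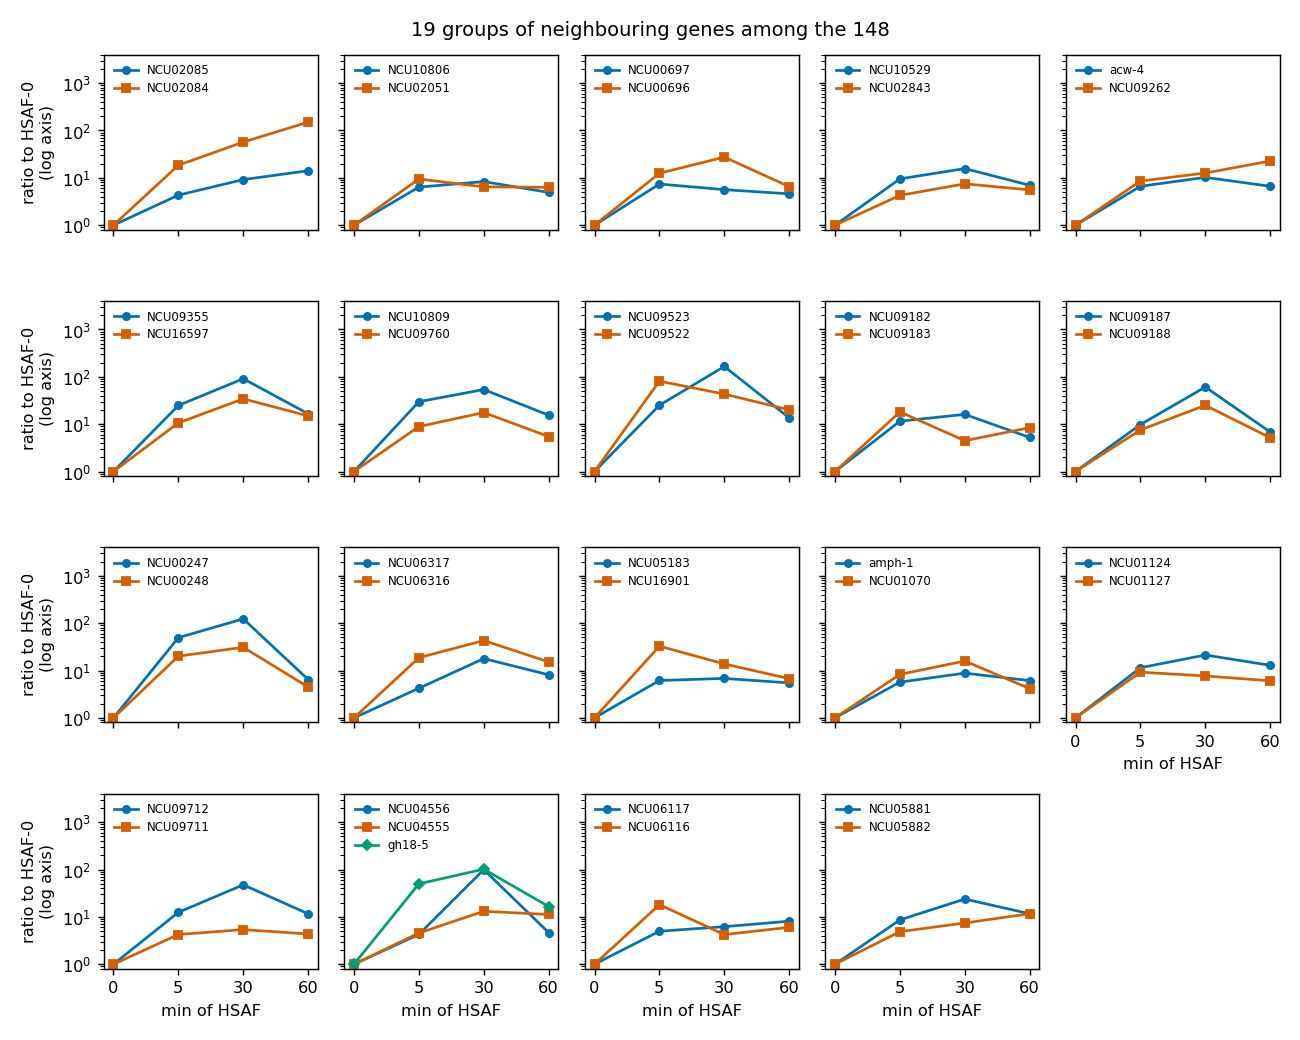
Ratio to HSAF-0 at 5, 30 and 60 min, on a log axis with evenly spaced times, for the 39 members in 19 groups of neighbouring genes. Each line is 1 gene. In 11 of the 20 adjacent pairs both lines peak at the same time, while kynureninase (NCU09183) and NCU09182 part at 30 min. Of all 148 members, 95 were highest at 30 min.

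The length implied by the deposited counts and FPKM had a median of 2315 bases in the members, 3296 in the transient genes and 2564 in the kept genes. By annotation, 41 of the 148 were integral components of a membrane, and their highest mean fell in HSAF-30 for 25. Of these 41, 11 rose between 5 and 30 min, beside 44 of all 148 members and 9.02% of all tested genes. Between 30 and 60 min 18 of them fell, beside 59 of the 148 and 13.8% of all tested genes. Of the 96 hypothetical or uncharacterized genes, 48 had no annotation term at all, and 32 rose between 5 and 30 min while 40 fell between 30 and 60 min. Of the 46 with a product name, 10 rose and 18 fell. No annotation class of members was tested against the genome, since the annotation table used is shortened.

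The threshold of 4 runs through a continuous range. Just inside it by the smallest ratio were NCU07952 (4.07 at 60 min), NCU04444 (4.12 at 5 min), NCU00268 (4.12 at 60 min), NCU07739 (4.14 at 60 min) and NCU01070 (4.15 at 60 min). Just outside were NCU06239 and NCU00322 (both 3.97 at 5 min), NCU01056 (3.95 at 30 min), NCU04645 (3.94 at 60 min) and NCU07545 (3.93 at 60 min). NCU00322 reached a ratio of 40.9 at 60 min and is no member. Leaving out each library in turn gave between 134 and 162 members, and 102 of the 148 met the rule in every case.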

How the data were processed

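Libraries were prepared from total RNA of mycelium with the NEBNext Ultra kit. The authors trimmed the reads with Trimmomatic. Aligner, counting program and assembly were not given in the sources used here. Deposited by the authors were raw read counts per feature and library, without normalization, and the FPKM of the same features. The methods state 24 h at 25 °C before treatment, while the labels give an age of 48 h and slants at 28 °C. A pair of sequencing platforms is named without assigning libraries, so the platform could not be modelled.

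The 9729 NCU rows were used, and rows named newGene were left out. Counts were tested in R 4.3.3 with edgeR 4.0.16: TMM factors, filterByExpr with a minimum count of 10 (7582 genes), a quasi-likelihood fit of 12 libraries with 1 term per time, Benjamini-Hochberg adjustment over all tested genes, and a call where the adjusted p was below 0.01 and the change 2-fold or more. SE is the absolute log2 fold change over the square root of F. DESeq2 1.42.0 served as an alternative, beside other scalings, no filter, a fit of the 2 groups compared, other constants and thresholds of the rule, and leaving out each library. TPM is the deposited FPKM rescaled over NCU rows. The test was checked on simulated data with each gene drawn independently. That check does not cover a shift shared by many genes of a library, and its outcome is not given here. Python 3.11.15 with pandas 2.3.3 and matplotlib 3.10.9 did the rest.

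The members and the gene lists were chosen with earlier results of these data known. Genes were named by a rule: the 10 members with the highest smallest ratio, the 5 genes on each side of the threshold, the 5 largest called changes in each direction from 5 to 30 and from 30 to 60 min, members with a symbol, members of annotation classes of at most 6, and runs of 3 or more neighbours. Annotation classes are keyword matches in product names and terms of the study's supplementary table, whose values were not used and which covered 142 of the 148. Symbols and gene order came from the NC12 RefSeq table. The crf symbols planned for the wall list belong to another family and were left out. The list still holds csr-1, which matched by symbol alone. Promoter motifs had been planned and were not analysed here.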

Additional observations from a re-analysis of the deposited data

Results flagged for a closer look

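Features outside the NCU genes also met the rule. Among the features named newGene, 175 had a mean of 50 or more in a group, and 16 of these (9.14%) were at least 4 times above HSAF-0 at 5, 30 and 60 min, against 2.71% of the kept NCU genes. The signal lies in data that no comparison above used, and what these features are is not given in the sources used here.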

How the results depend on the processing

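The 148 members became 93 with an added constant of 20, 224 with a ratio of 3 and 50 with a ratio of 8, and 134 to 162 without 1 library. Scaling by NCU totals gave 116 genes, 112 of them members. Of the calls, members that fell from 5 to 30 min numbered 3, or 5 with DESeq2 size factors, 5 with upper quartile factors and 8 with DESeq2. With library size alone, 9 rose from 30 to 60 min, and from 5 to 60 min 32 were higher and 15 lower with a median of 0.48. Without 1 library, the calls from 5 to 30 min ranged from 23 to 51 higher (lowest without D) and from 2 to 8 lower (8 without H), those from 30 to 60 min from 3 to 5 higher and 45 to 63 lower, and those from 5 to 60 min from 12 to 25 higher and 16 to 30 lower. Medians ranged from 0.72 to 1.13, from -1.30 to -0.82 and from -0.40 to 0.01. Members higher than HSAF-0 ranged from 131 to 148 at 5 min, 148 at 30 min and 130 to 148 at 60 min. Calls that held in every setting were 23 of 44 and 2 of 3 from 5 to 30 min, 3 of 4 and 41 of 59 from 30 to 60 min, and 12 of 20 and 12 of 25 from 5 to 60 min. The cause of these changes was not tested. No paired analysis was possible because the letters A to L mark no shared replicate. The low NCU count of library I, 790513, limits small counts in HSAF-30.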
